A study of Mus musculus with 8 samples.

Results

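The comparison described here set bone marrow macrophages given red blood cells coated with IgG2a antibody against unstimulated macrophages, across all genes on the array and in the absence of interferon gamma (IFNg). Its members were chosen by sample title, and they are 4 of the 8 arrays of the study: 2 of macrophages given the coated cells (SRBC-IgG2a ops, called opsonised red cells below) and 2 of unstimulated macrophages (Non stim). The macrophages of both groups were grown from C57BL/6 marrow in 30% L929 conditioned medium, a source of the growth factor M-CSF, and 20% serum. They were replated on day 7 in 15% L929 medium and 10% serum, and stimuli were added on day 8. Opsonised red cells were given at 10 red cells per macrophage for 6 h, and the IgG2a came from the hybridoma TIB111. The other arrays, 2 of IFNg (10 ng/ml, 6 h) together with opsonised red cells and 2 of IFNg alone, entered the same model fit and serve below as a comparison on separate arrays. Whether the 2 arrays of a group are of separate mice or cultures is not stated in the labels, so the spread behind each p-value is that between 2 such samples and may be technical. No array of macrophages given uncoated red cells was analysed here, so the contribution of the antibody coat and that of the red cell cannot be told apart.

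As background, Fc gamma receptors are the macrophage receptors that bind the constant part of IgG. When they are clustered by a coated particle, kinases act on the ITAM motifs of their signalling chains, actin pushes the membrane around the particle, and the closed phagosome acidifies and fuses with lysosomes. A red cell delivers haemoglobin, whose heme is opened by heme oxygenase to biliverdin, carbon monoxide and iron. The iron is then stored in ferritin or exported through ferroportin. Heme and oxidants also release the transcription factor NRF2 from KEAP1 and heme removes the repressor BACH1, and genes of glutathione, thioredoxin and heme metabolism are known targets of both factors.

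The arrays were Illumina MouseRef-8 beadchips, whose probes report a fluorescence intensity for each transcript. Deposited intensities of 25697 probes ran up to 35989, and 11630 probes (45.3%) exceeded a background floor of 204.9 on both arrays of at least 1 of the 4 groups. Taking the brightest probe of each gene left 8855 features, 8183 with a gene symbol. Arrays of the same group correlated at 0.992 (opsonised) and 0.993 (unstimulated) over all probes, and opsonised with unstimulated arrays at 0.983 to 0.984. Of 10 macrophage markers, 9 lay above the floor on all 4 arrays, among them Adgre1, Itgam, Cd14 and Spi1, and the summed intensity of the list was 72460 and 70424 with opsonised cells, against 69755 and 73552 in unstimulated cells. Most of this sum is Lyz1 and Lyz2, near the top of the scale, and without them it was 14155 and 13713 against 16007 and 14183. Of the macrophage markers Mertk and Maf were called lower, and 0 higher. None of 9 erythroid, 11 T and NK cell, 7 mast cell and basophil or 10 fibroblast markers was above the floor on all 4 arrays, while 1 of 7 B cell (Cd79b), 1 of 9 dendritic cell (Batf3) and 5 of 9 neutrophil markers (S100a8, S100a9, Elane, Ltf and Ngp) were. The summed neutrophil list was 3846 and 3266 with opsonised cells, against 3985 and 3830 in unstimulated cells, and S100a9 was called lower (344 and 354 against 489 and 427). The number of arrays, 2 a group, limits the precision of every value, and in a bulk sample fewer cells of a type and less RNA per cell cannot be told apart.

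Opsonised red cells changed the macrophage transcriptome in both directions, with the large changes mostly upward. The 12 genes that rose most were Hspa1a (an inducible heat shock protein), Hmox1, Dnmt3l, Slc7a11, Gclm, Srxn1, Plpp3, Gsta3, Clec4e, Ednrb, Spic and Cxcl2, and 4 of them (Slc7a11, Gclm, Srxn1 and Gsta3) belong to glutathione synthesis and oxidant defence. The transferrin receptor Tfrc, the mRNA-decay factor Zfp36l1 and the organic anion transporter Slco2b1 fell most. Of the 8855 features, 1146 (12.9%) passed limma's test at an adjusted p under 0.05, 565 higher (6.38%) and 581 lower (6.56%). The counts of each gene group below are to be read beside these shares. At least a 2-fold difference was reached by 76 of those that rose (0.858% of features) and 11 of those that fell (0.124%), and at least a 4-fold difference by 17 and 0. The median called difference was 0.49 on the log2 scale without regard to sign, and the median over all features was -0.02, with a median standard error (SE) of 0.11. With arrays aligned on housekeeping genes instead, 624 features were higher and 420 lower, 59.8% of calls upward against 49.3%. Without unstimulated array 1 or 2 the 1146 calls became 688 and 675.

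**Figure D1:**
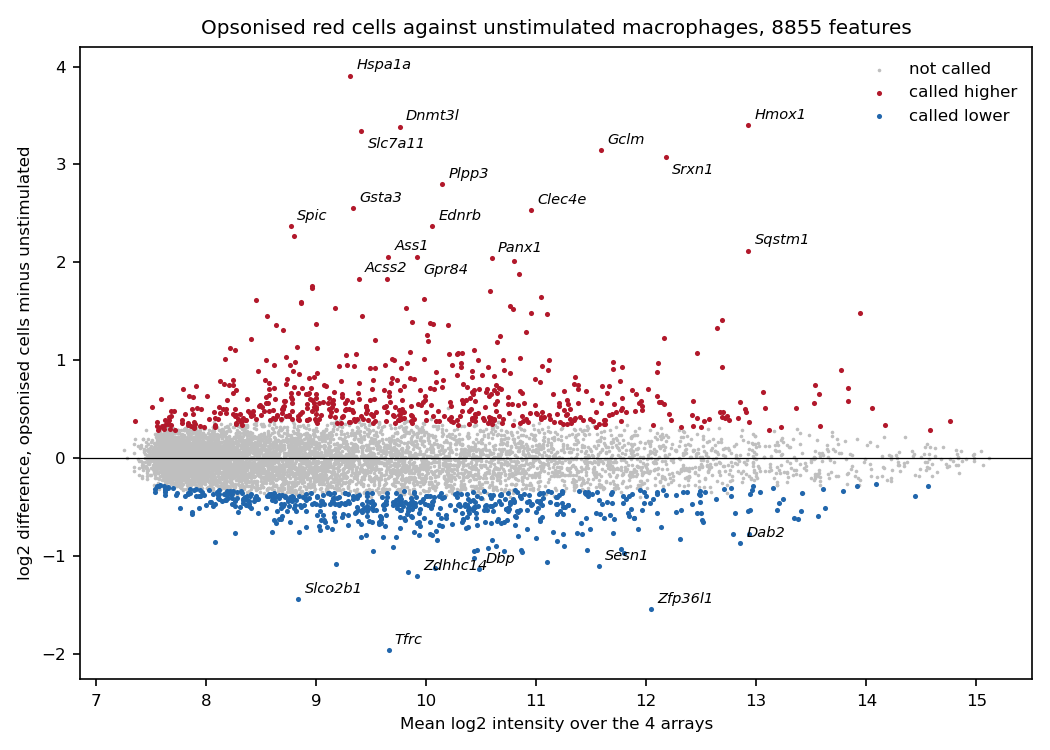
Each point is 1 of 8855 features, with its mean log2 intensity over the 4 arrays on the x axis and the log2 difference, opsonised minus unstimulated, on the y axis; red and blue points passed the test (565 higher, 581 lower) and grey points did not. The largest positive fitted difference is that of Hspa1a, whose unstimulated arrays lie below the floor (at least 11.99-fold), followed by 3.40 (Hmox1), and the largest negative one -1.97 (Tfrc).

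The NRF2 and glutathione group mostly rose: 19 of its 29 tested genes were called higher and 0 lower, beside 6.38% of all features called higher, and its median log2 difference was 0.56 against -0.02 for all features. The strongest was Slc7a11, which carries the cystine used for glutathione into the cell. Slc7a11 had 2137 and 2200 intensity units with opsonised cells, against 226 and 204 in unstimulated cells, a log2 difference of 3.34 ± 0.12 (SE, 2 arrays a group throughout; 10.1-fold, adjusted p = 1.1e-15). The unstimulated arrays lay at the background floor, where intensities understate a fold. Gclm, the modifier subunit of the enzyme that makes the first bond of glutathione, reached 9245 and 9039 against 997 and 1074 (3.14 ± 0.12, 8.83-fold, adjusted p = 5.0e-15). Srxn1, the sulfiredoxin that reactivates over-oxidised peroxiredoxins, stood at 12682 and 14226 against 1458 and 1748 (3.07 ± 0.12, adjusted p = 5.0e-15). Both genes left a wide gap between the groups, and their opsonised arrays were among the brighter signals of the array.

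Gsta3, a glutathione transferase, was the least even of these genes, with 1920 and 1279 on the opsonised arrays against 258 and 277 on the unstimulated ones (2.55 ± 0.16, adjusted p = 4.0e-11). Osgin1, an oxidative stress-induced growth inhibitor, gave 915 and 910.5 against 261 and 286 (1.74 ± 0.12, 3.35-fold). Catalase (Cat), which breaks down hydrogen peroxide, gave 1546 and 1496 against 631 and 531 (1.39 ± 0.12, 2.63-fold, adjusted p = 1.2e-08). In each of these genes the lower opsonised array was above the higher unstimulated array. Among 7 tested enzymes that supply NADPH, the reductant that glutathione and thioredoxin cycles use, 3 rose and 0 fell. The transaldolase gene Taldo1 was at 17911 and 19464 against 11182 and 11550 (0.72 ± 0.09) and the isocitrate dehydrogenase gene Idh1 at 4268 and 4124 against 2941 and 2948 (0.51 ± 0.11).

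Promoter sequences are shown for 3 of these genes that hold a match to the core of the antioxidant response element, to which NRF2 binds. They were chosen for the match, and the windows of Slc7a11, Osgin1, Cat, Nqo1, Cbr3 and Sqstm1 held none. The window ran from 250 bases before to 50 bases after the RefSeq start on GRCm38.p6, on the gene's own strand, and capitals mark every match on either strand to the core TGACNNNGC. This core can contain the letters of an AP-1 site. A match was present in 14% of the 27025 genes with a promoter in the table and 16.6% of the tested genes, in 19.4% of those called higher and 18.2% of those called lower, in 9 of the 28 tested NRF2 and glutathione genes with a promoter (32.1%), and in 8 of the 23 named higher genes with a promoter (34.8%). Gclm lies on chromosome 3 (chr3:122245307-122245606, plus strand) and its match begins at -134 relative to the start. Srxn1 lies on chromosome 2 (chr2:152105274-152105573, plus strand), with the match beginning 28 bases after the start. Gsta3 lies on chromosome 1 (chr1:21240335-21240634, plus strand), with the match at -121.
Gclm: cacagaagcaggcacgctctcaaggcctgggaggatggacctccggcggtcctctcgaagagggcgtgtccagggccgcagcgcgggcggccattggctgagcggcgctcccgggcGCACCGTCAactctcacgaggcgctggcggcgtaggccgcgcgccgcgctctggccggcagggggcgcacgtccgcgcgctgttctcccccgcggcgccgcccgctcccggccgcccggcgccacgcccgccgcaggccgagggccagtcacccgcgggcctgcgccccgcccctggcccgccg
Srxn1: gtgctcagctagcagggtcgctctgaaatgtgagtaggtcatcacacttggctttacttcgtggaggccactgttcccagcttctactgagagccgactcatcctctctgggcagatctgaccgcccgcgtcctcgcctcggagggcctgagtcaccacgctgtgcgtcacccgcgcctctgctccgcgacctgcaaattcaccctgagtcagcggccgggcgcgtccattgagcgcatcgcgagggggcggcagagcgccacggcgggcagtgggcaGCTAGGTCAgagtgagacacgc
Gsta3: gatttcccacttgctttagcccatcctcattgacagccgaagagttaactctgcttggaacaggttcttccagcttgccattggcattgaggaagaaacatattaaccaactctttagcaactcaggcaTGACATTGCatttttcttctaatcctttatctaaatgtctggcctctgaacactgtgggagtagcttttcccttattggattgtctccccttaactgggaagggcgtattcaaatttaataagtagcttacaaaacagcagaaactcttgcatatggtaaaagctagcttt

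**Figure D2:**
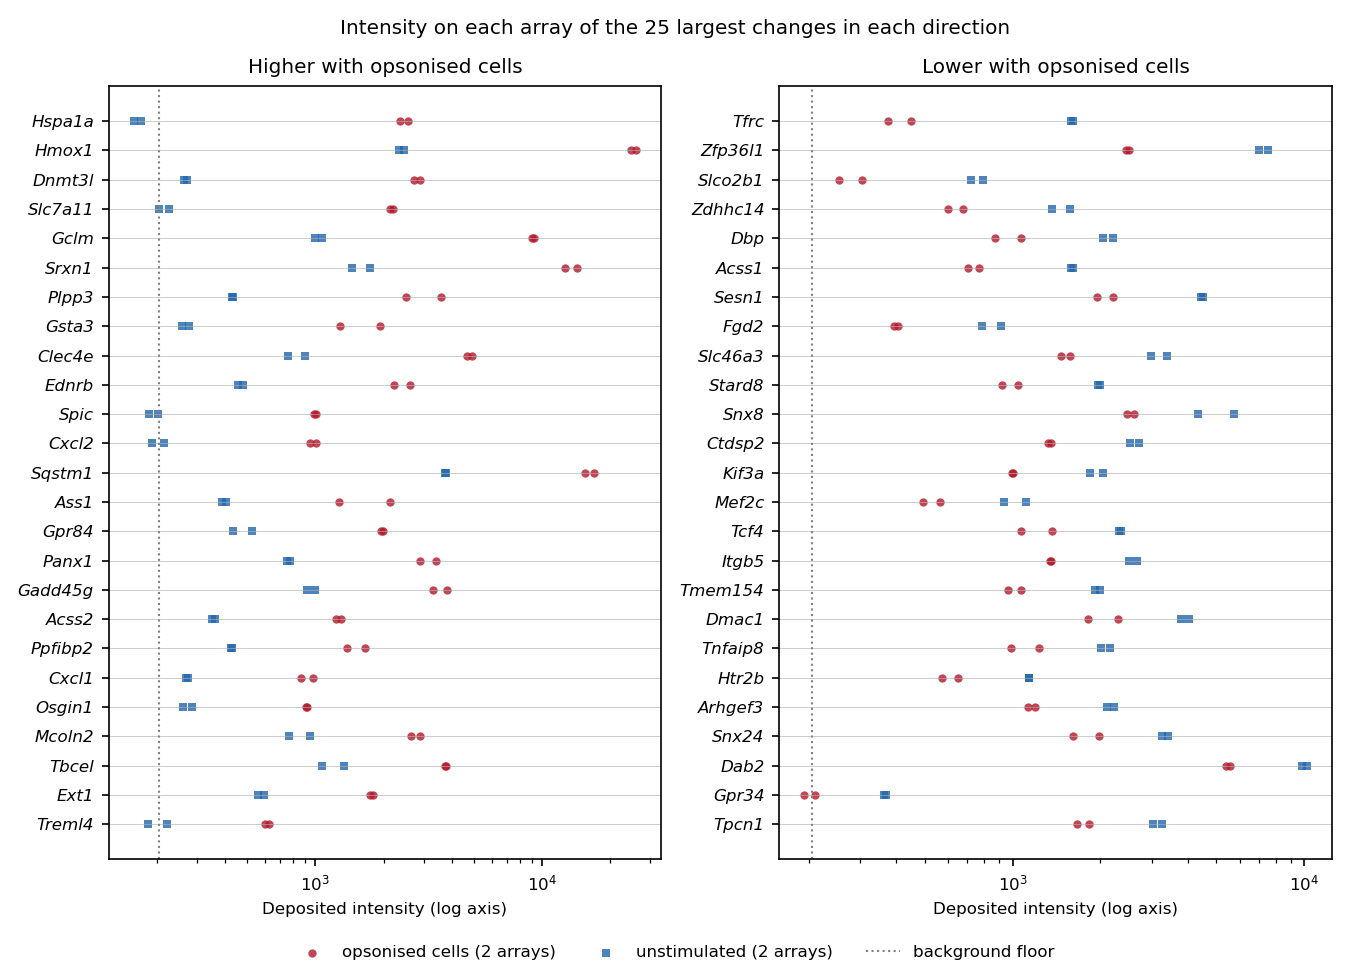
Deposited intensity (x axis, log scale) on each of the 4 arrays for the 25 genes that rose most (left) and the 25 that fell most (right), with opsonised arrays as red circles, unstimulated arrays as blue squares and the background floor of 204.9 as a dotted line. In all 50 genes the groups do not overlap, which is part of how they were chosen.

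Heme and iron genes moved in both directions, with 7 of 24 tested members called higher and 4 lower (median log2 difference -0.04). The genes called higher included Hmox1, Spic, Slc48a1 and Slc40a1, and the largest fall was that of Tfrc. Hmox1, heme oxygenase 1, had 26039 and 24684 with opsonised cells, against 2342 and 2451 in unstimulated cells (3.40 ± 0.10, 10.6-fold, adjusted p = 2.6e-17), and the opsonised arrays were near the top of the intensity scale. Its constitutive relative Hmox2 was not called (-0.31 ± 0.11). Blvrb, a biliverdin reductase, rose to 14910 and 15633 against 10149 and 9287 (0.65 ± 0.10), whereas Blvra, the reductase that makes bilirubin in adults, fell to 3639 and 3291 against 5073 and 4442 (-0.46 ± 0.11, adjusted p = 0.0058). The Blvra call was lost without opsonised array 2 (-0.38) or unstimulated array 1 (-0.36).

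Spic, the transcription factor of red pulp macrophages that recycle red cells, gave 983 and 1006 with opsonised cells, against 185 and 201 in unstimulated cells, by its brightest probe. Neither unstimulated array was above the floor, so the rise of that probe is at least 4.85-fold (each array of the dim group set at the higher of its own signal and the floor, adjusted p = 8.7e-13). The other Spic probe differed by 0.86 on the log2 scale and was called too, and the mean of both differed by 1.61. Slc48a1, which carries heme out of the phagolysosome, stood at 11309 and 10209 against 4143 and 3938 (1.41 ± 0.10, 2.66-fold, adjusted p = 3.3e-10). Slc40a1, ferroportin, the exporter of iron, stood at 26321 and 26467 against 9215 and 9689 (1.48 ± 0.09, 2.79-fold, adjusted p = 2.5e-11). All 3 genes had each opsonised array well above each unstimulated array. The iron carriers of endosome and phagosome, Slc11a2 and Slc11a1, also rose, to 1208 and 1247 against 709.5 and 685 (0.82 ± 0.11) and to 18352 and 17463 against 12498 and 11426 (0.58 ± 0.10).

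Tfrc, the receptor for iron-loaded transferrin, fell to 447 and 375, against 1605 and 1592 in unstimulated cells, 3.91-fold lower (-1.97 ± 0.12, adjusted p = 2.3e-11). Its partner Hfe fell to 844 and 728 against 1083 and 1401 (-0.65 ± 0.13), and the RNA-binding iron chaperone Pcbp2 to 3016 and 2279 against 3969 and 3136 (-0.43 ± 0.13), where the higher opsonised array was close to the lower unstimulated one. The other Hfe probe differed by -0.17 and was not called. The Hfe call was lost without unstimulated array 2 (-0.47), and the Pcbp2 call without opsonised array 2 (-0.23) or unstimulated array 1 (-0.26) and in a fit of the 4 arrays alone. Without unstimulated array 1 the 4 lower calls of the group became 2. The ferritin heavy chain Fth1 was not called, at 26589 and 28742 against 28742 and 27004 (-0.01 ± 0.09), and it too lay near the top of the scale. The iron regulatory protein genes Aco1 (-0.09 ± 0.11) and Ireb2 (-0.03 ± 0.13), the heme-binding repressor Bach1 (0.19 ± 0.14), the ferritin receptor for autophagy Ncoa4 (-0.12 ± 0.14), the iron-sensing ligase subunit Fbxl5 (0.12 ± 0.11), the iron chaperone Pcbp1 (-0.04 ± 0.10), the iron carrier Trf (-0.13 ± 0.12) and the heme-hemopexin receptor Lrp1 (-0.30 ± 0.13) were not called. The probes of Ftl1, Flvcr2 and Cp, for the ferritin light chain, a heme transporter relative and ceruloplasmin, were at or near the floor in every array of this comparison, with intensities from 188 to 226 with opsonised cells, against 175 to 218 in unstimulated cells, and none was called. Whether these probes report their transcripts was not tested, so neither a low level nor a lack of change can be read from them.

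**Figure D3:**
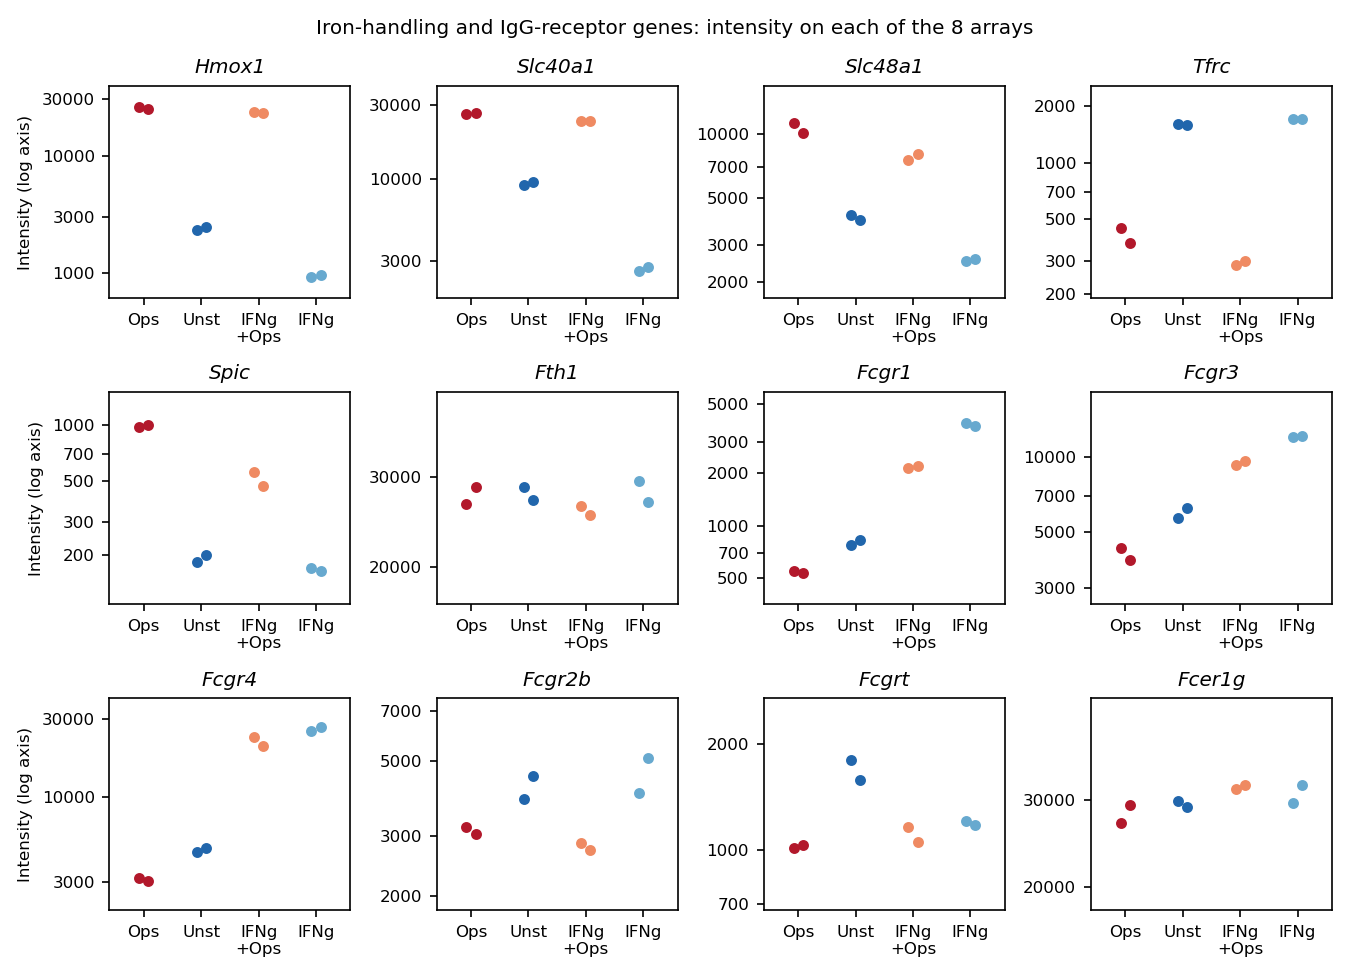
Deposited intensity (y axis, log scale, a separate range in each panel) on each of the 8 arrays for 6 iron and heme genes and 6 IgG receptor genes, from left to right opsonised cells (Ops), unstimulated (Unst), IFNg with opsonised cells (IFNg+Ops) and IFNg. Hmox1, Slc40a1, Slc48a1 and Spic are higher and Tfrc lower in each opsonised group than in its partner, while Fth1 and Fcer1g overlap between opsonised and unstimulated arrays.

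Protein quality control genes rose in part. Of 13 tested heat shock chaperone genes 6 were called higher and 0 lower (median log2 difference 0.28). Hspa1a, the stress-inducible HSP70, had 2365 and 2553 with opsonised cells, against 158 and 170.0 in unstimulated cells, which lay below the floor. The rise is at least 11.99-fold (adjusted p = 2.5e-16), and transcripts of a near-identical copy, Hspa1b, could bind the same probe. Hsph1, an HSP70 exchange factor, was at 885 and 918 against 483 and 459.7 (0.94 ± 0.12). The other 4, the mitochondrial chaperonin Hspd1 (0.48 ± 0.12), the co-chaperone Bag3 (0.47 ± 0.11), the constitutive Hspa8 (0.34 ± 0.09) and the small heat shock gene Hspb1, which was below the floor in unstimulated cells (0.28 ± 0.09), rose by less, and each lost its call when 1 array was left out, with values from 0.26 to 0.41. The count of 6 dropped to 3 without opsonised array 1 and to 3 without unstimulated array 2.

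Of 27 constitutive proteasome subunit genes 13 rose and 0 fell, and the median log2 difference was 0.34. The count dropped to 8 without unstimulated array 1 and to 8 without unstimulated array 2. Psma5, a subunit of the core ring, gave 16102 and 14715 against 9334 and 9022 (0.75 ± 0.09), and Psmd7, of the regulatory cap, 3401 and 3339 against 1966 and 2029 (0.75 ± 0.11). Sqstm1 (p62), the receptor that brings ubiquitinated cargo to autophagosomes, was at 15517 and 17027 with opsonised cells, against 3766 and 3715 in unstimulated cells (2.12 ± 0.10, 4.35-fold, adjusted p = 1.2e-13). Within the 16 tested autophagy genes, 3 rose, with Gabarapl1, an ATG8-family protein, at 2106 and 2608 against 1158 and 1427 (0.87 ± 0.13), 1 fell and 12 were not called. The lower call was lost without opsonised array 1 or 2 or without unstimulated array 1.

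Inflammatory genes rose without a matching fall. In the cytokine and NF-kappaB feedback group 14 of 26 tested genes were called higher and 0 lower (median 0.37). Tnf, the cytokine tumour necrosis factor, was at 997 and 971 with opsonised cells, against 366 and 315 in unstimulated cells (1.53 ± 0.11, 2.9-fold, adjusted p = 8.6e-10). Icam1, a leukocyte adhesion molecule, gave 3173 and 4221 against 1234 and 1417 (1.47 ± 0.12), and Sod2, the mitochondrial superoxide dismutase, 9988 and 10361 against 3673 and 4448 (1.33 ± 0.10). The NF-kappaB inhibitors Nfkbia (1.08 ± 0.11) and Nfkbie (0.80 ± 0.13) and the subunit Relb (0.87 ± 0.12) rose too. Among 15 chemokine genes 4 rose and 0 fell. Cxcl2 and Cxcl1, ligands of the neutrophil receptor CXCR2, had 951 and 1004 against 215 and 190.5 (2.27 ± 0.12, adjusted p = 1.7e-12) and 979 and 861 against 268 and 274 (1.76 ± 0.12, adjusted p = 2.3e-10). Cxcl10, a T cell chemoattractant, was dimmer, at 409 and 499 against 195 and 226 (1.11 ± 0.11), and Ccl3 changed least, at 3204 and 2648 against 2161 and 2097 (0.45 ± 0.11), a call lost without opsonised array 1 (0.31) or unstimulated array 2 (0.43).

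The promoters of Cxcl1 and Cxcl2 are shown because each holds 2 overlapping matches, 1 on each strand, to the kappaB consensus, to which NF-kappaB can bind. Capitals mark the run of bases that the matches cover. The consensus occurred in 9.55% of all 27025 genes with a promoter and 12.1% of the tested genes, in 10 of the 18 cytokine and NF-kappaB feedback genes with a promoter (55.6%), and in 16.5% of genes called higher and 8.43% of genes called lower. This consensus replaced a narrower string of letters after shares had been seen. The gene group was itself drawn up around NF-kappaB, so these shares are a description and no independent test. The promoters of Tnf and Icam1 held no match in this window. Both chemokine genes lie on chromosome 5 and on its plus strand, Cxcl1 at chr5:90890995-90891294 and Cxcl2 at chr5:90903649-90903948.
Cxcl1: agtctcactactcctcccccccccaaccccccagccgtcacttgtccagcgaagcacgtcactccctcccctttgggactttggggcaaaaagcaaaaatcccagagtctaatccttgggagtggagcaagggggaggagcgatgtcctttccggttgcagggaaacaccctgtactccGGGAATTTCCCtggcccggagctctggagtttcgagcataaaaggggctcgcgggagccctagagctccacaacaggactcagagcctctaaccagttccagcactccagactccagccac
Cxcl2: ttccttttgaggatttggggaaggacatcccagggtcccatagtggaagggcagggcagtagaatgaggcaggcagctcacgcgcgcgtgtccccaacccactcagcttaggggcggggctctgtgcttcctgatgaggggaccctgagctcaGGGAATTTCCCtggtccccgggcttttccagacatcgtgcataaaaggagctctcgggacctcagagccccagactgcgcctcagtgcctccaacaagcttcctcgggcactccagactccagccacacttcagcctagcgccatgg

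Of 28 tested immediate early and MAPK feedback genes 6 rose and 1 fell. The stress-response gene Gadd45g was at 3291 and 3799 against 1001 and 923 (1.88 ± 0.11, 3.68-fold). The stress transcription factor Atf3 was at 1374 and 1778 against 688 and 680.0 (1.19 ± 0.13). The MAP kinase phosphatases Dusp4 and Dusp1 differed by 1.13 ± 0.13 and 0.97 ± 0.12. The 3 Dusp4 probes ranged from 0.25 to 1.13, 2 of them called, with a mean of 0.68. The gene that fell was Zfp36l1, which binds AU-rich elements and promotes mRNA decay: it was at 2440 and 2511 with opsonised cells, against 7511 and 6973 in unstimulated cells, 2.92-fold lower (-1.55 ± 0.10, adjusted p = 1.1e-10).

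Some interferon-responsive genes rose: 10 of 36 were called higher and 1 lower (median 0.23), and without opsonised array 2 the 10 became 6. The antiviral gene Rsad2 gave 2330 and 3846 with opsonised cells, against 1090 and 1382 in unstimulated cells (1.29 ± 0.15), with the opsonised arrays far apart. The guanylate-binding protein gene Gbp2 gave 1535 and 1664 against 669.6 and 667 (1.26 ± 0.10) by its brightest probe, the only one called of 3 that ranged from 0.10 to 1.26, with a mean of 0.49. Ifit2 and Ifit3 differed by 1.06 ± 0.12 and 0.83 ± 0.13. The 3 Ifit3 probes ranged from 0.25 to 0.83, 1 of them called, with a mean of 0.47. The gene that fell was the IFNg receptor chain Ifngr1, at 1094 and 1022 against 1534 and 1582 (-0.56 ± 0.11, adjusted p = 0.0015). None of 7 tested MHC class II genes was called (median -0.11). Of 10 co-stimulation and checkpoint genes, Cd274 (PD-L1) rose to 2850 and 2453 against 1323 and 1279 (1.02 ± 0.10), as did Cd40 (0.76 ± 0.11). The 4 Cd40 probes ranged from 0.10 to 0.76, 2 of them called, with a mean of 0.41.

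The receptors that bind the antibody coat were lower in macrophages given opsonised cells. In the Fc gamma receptor and ITAM group 0 of 22 tested genes rose and 7 fell, beside 6.56% of all features called lower, and the median was -0.08. Fcgr1, the high-affinity receptor for IgG2a, was at 548 and 532 with opsonised cells, against 774 and 826 in unstimulated cells (-0.57 ± 0.11, 1.48-fold lower, adjusted p = 7.2e-04). Fcgr4 was at 3143 and 3008 against 4565 and 4838 (-0.61 ± 0.10), Fcgr3 at 4315 and 3876 against 5686 and 6288 (-0.55 ± 0.10), and the inhibitory Fcgr2b at 3189 and 3034 against 3853 and 4517 (-0.42 ± 0.12). All these falls were under 2-fold, and in each the groups did not overlap. The Fcgr2b call was lost without opsonised array 2 (-0.39) or unstimulated array 2 (-0.31). The 3 Fcgr2b probes ranged from -0.73 to -0.07, 2 of them called, with a mean of -0.41. These receptors are related in sequence, and cross-hybridisation between their probes was not tested.

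The shared gamma chain Fcer1g, which carries the ITAM of the activating receptors, was not called, at 27004 and 29424 against 29945 and 29099 (-0.07 ± 0.08). The neonatal receptor Fcgrt, which salvages IgG, fell to 1013 and 1036 against 1801 and 1579 (-0.72 ± 0.11, 1.65-fold lower), the CD47 receptor Sirpa to 1226 and 1122 against 1935 and 1413 (-0.50 ± 0.13) and the adaptor Tyrobp to 7614 and 6345 against 9633 and 8330 (-0.37 ± 0.11). The Sirpa and Tyrobp calls were lost without opsonised array 2 (-0.43 and -0.23) or unstimulated array 1 (-0.27 and -0.26), and Tyrobp also with cyclic loess (-0.34) or housekeeping alignment (-0.33). Without opsonised array 2 the 7 lower calls of the group became 4. The kinase Btk (-0.09 ± 0.10), the phospholipase Plcg2 (-0.04 ± 0.11), the exchange factors Vav1 (0.16 ± 0.11) and Vav3 (-0.24 ± 0.11), the phosphatases Inpp5d (0.13 ± 0.12) and Ptpn6 (-0.03 ± 0.11), the adaptors Blnk (-0.36 ± 0.13), Lat2 (0.05 ± 0.09), Lcp2 (0.01 ± 0.13) and Pik3ap1 (-0.08 ± 0.13), the kinase subunit Pik3cd (-0.09 ± 0.12) and the integrin chains Itgb2 (0.01 ± 0.13) and Itgam (-0.07 ± 0.13) were not called. Src, a dim probe at 214 and 228 against 196 and 168, was not called either.

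C-type lectin receptor genes moved mainly the other way, with 5 of 13 called higher and 1 lower (median 0.30). Clec4e (Mincle), an ITAM-coupled receptor for microbial glycolipids and for a protein released by dead cells, was at 4659 and 4893 with opsonised cells, against 903 and 756 in unstimulated cells (2.53 ± 0.12, 5.78-fold, adjusted p = 4.1e-13). Clec4n (dectin-2) gave 6987 and 7065 against 2858 and 3165 (1.22 ± 0.10), and Clec7a (dectin-1), a receptor for fungal glucans, 1298 and 1394 against 695 and 582 (1.08 ± 0.14) by its brightest probe. The 4 Clec7a probes ranged from 0.11 to 1.08, 2 of them called, with a mean of 0.56. The mannose receptor Mrc1 fell, at 6150 and 6973 against 9466 and 9521 (-0.54 ± 0.10). Of 16 Toll-like receptor and co-receptor genes, Tlr2 rose (0.98 ± 0.11, 4977 and 4354 against 2439 and 2295) and 0 fell.

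In the group for uptake of dying cells and scavenging, 0 of 17 rose and 5 fell. Itgb5, an integrin chain that binds dying-cell bridging proteins, was at 1340 and 1356 against 2503 and 2674 (-0.94 ± 0.11, 1.92-fold lower). The receptor kinase Mertk was at 842 and 936 against 1252 and 1279 (-0.51 ± 0.11) and its bridging ligand Gas6 at 7316 and 8876 against 11139 and 11031 (-0.46 ± 0.10), a call lost without opsonised array 1 (-0.32). The count of 5 became 3 without opsonised array 1, without unstimulated array 2 or with arrays aligned on housekeeping genes. Of 21 G protein-coupled receptor genes 4 rose and 7 fell. Ednrb, the endothelin B receptor, rose to 2627 and 2229 against 456 and 480.1 (2.37 ± 0.12, 5.17-fold) by its brightest probe, and its 3 probes ranged from 0.18 to 2.37 with a mean of 1.10. Gpr84, which senses medium-chain fatty acids, rose to 1997 and 1955 against 525 and 432 (2.05 ± 0.12) and the formyl peptide receptor Fpr2 to 870.4 and 757 against 262 and 276 (1.60 ± 0.12). The serotonin receptor Htr2b (-0.91 ± 0.12) and the lysophospholipid receptor Gpr34 (-0.86 ± 0.11) fell.

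The machinery that builds and matures the phagosome showed few calls at 6 h. Of 16 tested actin genes of the phagocytic cup 0 rose and 1 fell, the Arp2/3 activator Was, at 1889 and 1956 against 2884 and 2813 (-0.57 ± 0.10). Of 29 lysosome genes 1 rose and 0 fell, the acid lipase Lipa, at 3962 and 4004 against 3185 and 2589 (0.47 ± 0.13), a call lost without either opsonised array (0.48 and 0.46) or without unstimulated array 2 (0.32). The median over the lysosome genes was 0.02. The proton pump of the phagosome had 1 of 15 genes higher, Atp6v1h (0.44 ± 0.10), not called without unstimulated array 1 (0.38). Of 5 tested subunits of the NADPH oxidase, which makes superoxide in the phagosome, Ncf4 rose to 4191 and 4868 against 3130 and 3335 (0.48 ± 0.10). The called shares of the actin, lysosome and proton pump genes lie below the 12.9% of all features; that of the NADPH oxidase group rests on 1 gene.

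**Figure D4:**
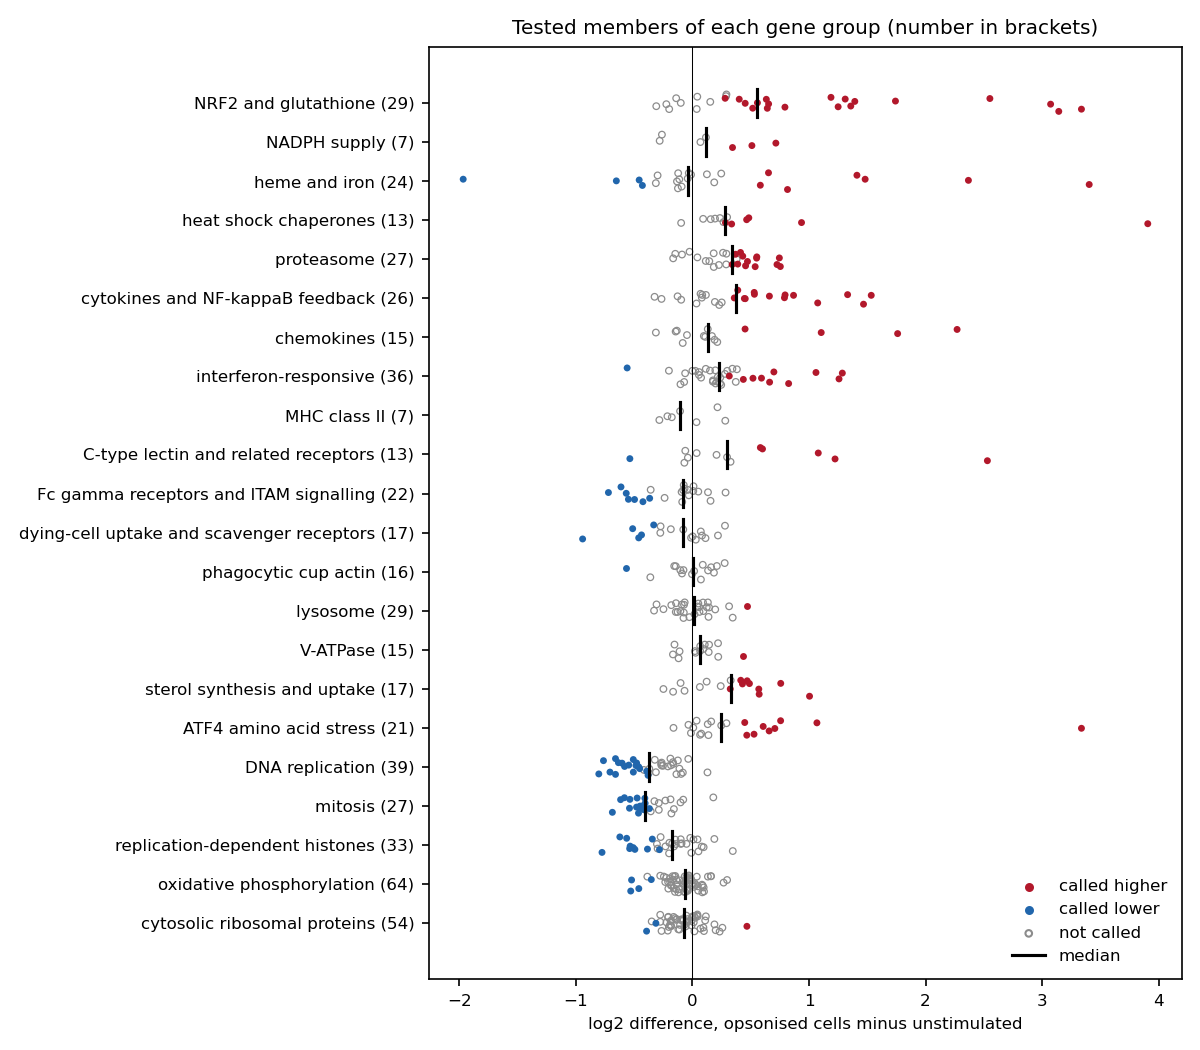
The log2 difference, opsonised minus unstimulated (x axis), of each tested member of 22 gene groups, with red points called higher, blue points called lower, open points not called and a black bar at the group's median; points are spread vertically for legibility. NRF2, proteasome and cytokine genes lie mostly to the right of 0, DNA replication and mitosis genes to the left, and lysosome and actin genes around 0.

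Sterol genes rose in part. Of 17 tested genes of sterol synthesis and uptake 9 were called higher and 0 lower (median 0.33). Hsd17b7, a late enzyme of cholesterol synthesis, gave 2183 and 1848 with opsonised cells, against 1049 and 955 in unstimulated cells (1.01 ± 0.12, 2.01-fold), the demethylase gene Cyp51 1582 and 1793 against 1127 and 879.5 (0.76 ± 0.13), and the mevalonate pathway decarboxylase gene Mvd 1013 and 981 against 719 and 625 (0.57 ± 0.12). Without unstimulated array 2 the count was 5, and Mvd was not called (0.47). Of 14 tested LXR and lipid handling genes 3 rose, among them the oxysterol-sensing receptor Nr1h3 at 582 and 707 against 396 and 418 (0.66 ± 0.12), and without unstimulated array 2 the count was 1. The acetyl-CoA synthetases moved in opposite directions. The cytosolic Acss2 rose to 1296 and 1235 against 359.6 and 352 (1.83 ± 0.11, 3.56-fold), and the mitochondrial Acss1 fell to 701 and 769.5 against 1585 and 1610 (-1.12 ± 0.11, 2.17-fold lower).

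In the ATF4 amino acid stress group 9 of 21 rose and 0 fell (median 0.25). Besides Slc7a11, the transcription factor Cebpb stood at 8011 and 8330 against 3985 and 3807 (1.07 ± 0.11), the glutathione-degrading enzyme Chac1 at 366 and 382 against 210.1 and 233 (0.76 ± 0.12), and the mitochondrial folate enzyme Mthfd2 at 618 and 588 against 429 and 339 (0.66 ± 0.13). Ass1, which joins citrulline to aspartate on the way to arginine, rose to 1265 and 2139 against 387 and 404 (2.06 ± 0.16, 4.16-fold), with its opsonised arrays well apart. Of 21 glycolysis and HIF1 target genes 3 rose and 3 fell, and the 3 lower calls became 1 without opsonised array 2 or unstimulated array 1. The glucose transporter Slc2a1 rose to 3073 and 2880 against 1055 and 974 (1.55 ± 0.11, 2.93-fold, adjusted p = 4.5e-10), and the phosphofructokinase gene Pfkl fell to 904 and 973 against 1539 and 1330 (-0.61 ± 0.12) by its brightest probe, with no call for the mean of its probes (-0.29). Oxidative phosphorylation subunits had 0 of 64 higher and 4 lower (median -0.06), and cytosolic ribosomal proteins 1 of 54 higher and 2 lower (median -0.07). The called shares of these groups, 6.25% and 5.56%, lie below the 12.9% of all features. Of the oxidative phosphorylation genes 2 were lower without opsonised array 2, and 2 were higher without opsonised array 1. Of the ribosomal genes 0 were lower without unstimulated array 1.

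Many proliferation genes fell. In the DNA replication group 0 of 39 tested genes rose and 18 fell, and in the mitosis group 0 of 27 rose and 16 fell, with medians of -0.37 and -0.41. Their called shares were 46.2% and 59.3%, beside 12.9% of all features. The counts dropped to 11 and 8 without unstimulated array 1, and the mitosis count to 8 without unstimulated array 2. Msh6, a mismatch repair subunit, was at 614 and 568 with opsonised cells, against 1002 and 1060 in unstimulated cells (-0.80 ± 0.12), the helicase subunit Mcm4 at 2198 and 1884 against 3569 and 3339 (-0.76 ± 0.11), and the thymidine kinase Tk1 at 1063 and 1031 against 1690 and 1726 (-0.71 ± 0.12). None of these genes changed by 2-fold, but each opsonised array was below each unstimulated array. The spindle checkpoint gene Mad2l1 was at 1261 and 985 against 1749 and 1839 (-0.69 ± 0.12), the centromere histone Cenpa at 8524 and 8287 against 13623 and 12170 (-0.62 ± 0.11) and the mitotic kinase Cdk1 at 1288 and 1295 against 1925 and 1829 (-0.54 ± 0.11). Of 33 replication-dependent histone genes 10 fell and 0 rose. The count was 5 without unstimulated array 1. All 10 were H2A genes, led by H2ac10 (-0.77 ± 0.10), and because these copies are near-identical a probe may report several of them.

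Genes that restrain growth moved in both directions. Of 21 tested growth restraint and D cyclin genes 2 rose and 6 fell, and without unstimulated array 2 the count of rises was 1. The CDK inhibitor Cdkn1c rose to 548 and 664 against 356 and 378 (0.72 ± 0.13). The stress-induced Sesn1 fell to 1942 and 2213 against 4505 and 4436 (-1.11 ± 0.11, 2.16-fold lower), Ypel3 to 3590 and 4025 against 6299 and 7260 (-0.83 ± 0.11), and the CDK inhibitor Cdkn2c to 1109 and 1260 against 1822 and 1906 (-0.66 ± 0.11). The other probes of Ypel3 and Cdkn2c differed by -0.19 and -0.15 and were not called. That of Sesn1 differed by -0.59 and was called. Of 13 p53 target genes 2 rose (1 without unstimulated array 2) and 3 fell (1 with the mean of probes), with the death receptor Fas at 843 and 805 against 322 and 318 (1.36 ± 0.11). The other Fas probe differed by 0.65 and was called too. Of 16 Bcl2 family and caspase genes 0 rose and 3 fell, the pro-apoptotic Bbc3 (-0.60 ± 0.12) and Bcl2l11 (-0.53 ± 0.12) and the caspase Casp6 (-0.53 ± 0.12). The mean of the Bbc3 probes was not called (-0.23), and Casp6 was not called without opsonised array 2 (-0.39) or unstimulated array 1 (-0.49). The other Bcl2l11 probe differed by -0.20 and was not called.

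The promoter of Msh6 (chromosome 17, chr17:87974800-87975099, plus strand) is shown as that of a replication gene that holds a match to E2F letters. Capitals mark the match, 15 bases after the start, to TTTCCCGC or TTTGGCGC, searched on both strands. The window of Tk1 held none. These letters were present in 1.8% of all promoters and 3.31% of those tested, in 9 of the 33 DNA replication genes with a promoter (27.3%), in 0 of 22 mitosis genes, and in 5.99% of genes called lower and 1.92% of genes called higher.
Msh6: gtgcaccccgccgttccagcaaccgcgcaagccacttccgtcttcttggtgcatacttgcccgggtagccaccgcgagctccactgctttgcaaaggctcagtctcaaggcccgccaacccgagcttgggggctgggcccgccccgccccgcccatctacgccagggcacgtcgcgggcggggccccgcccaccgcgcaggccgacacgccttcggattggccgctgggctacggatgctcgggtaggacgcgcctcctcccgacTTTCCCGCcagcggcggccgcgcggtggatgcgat

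Several of the largest changes belong to no group above. Dnmt3l, a cofactor of the DNA methyltransferases best known from germ cells, had 2894 and 2716 with opsonised cells, against 265 and 272 in unstimulated cells (3.38 ± 0.12, 10.4-fold, adjusted p = 6.3e-16). Plpp3, a membrane lipid phosphatase, gave 2508 and 3569 against 434 and 428 (2.80 ± 0.13, 6.95-fold) by its brightest probe, while its other probe differed by 0.47 and the mean of both by 1.63 (3.1-fold). Panx1, which forms channels that release ATP, gave 3421 and 2886 against 771 and 752 (2.04 ± 0.11, 4.13-fold). The endolysosomal cation channel Mcoln2 (1.71 ± 0.12), the heparan sulfate polymerase Ext1 (1.63 ± 0.12), the receptor Treml4 (1.61 ± 0.12), and Ppfibp2 (1.83 ± 0.12) and Tbcel (1.65 ± 0.12) also ranked among the 25 largest rises. The collagenase Mmp13 rose to 1661 and 1732 against 631 and 669 (1.38 ± 0.12) by its brightest probe. Of its 3 probes, which ranged from 0.08 to 1.38 with a mean of 0.54, the other two were not called. The membrane-bound Mmp14 rose to 2103 and 1690 against 654 and 832 (1.35 ± 0.13).

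On the lower side, the organic anion transporter Slco2b1 was at 304 and 255 with opsonised cells, against 718 and 795 in unstimulated cells (-1.44 ± 0.13, 2.72-fold lower). Dbp, a clock-controlled transcription factor, was at 1072 and 869.8 against 2202 and 2035 (-1.13 ± 0.12) and the palmitoyltransferase Zdhhc14 at 603 and 675 against 1368 and 1578 (-1.20 ± 0.12). The endocytic adaptor Dab2 was at 5387 and 5558 against 10209 and 9813 (-0.87 ± 0.09), and the transcription factors Mef2c (-0.95 ± 0.13) and Tcf4 (-0.95 ± 0.12) and the endolysosomal channel Tpcn1 (-0.85 ± 0.11) fell by similar amounts, each by its brightest probe. The 3 Tpcn1 probes ranged from -0.85 to -0.10, 1 of them called. The 3 Mef2c probes ranged from -0.95 to -0.20, 2 of them called, with a mean of -0.51. The other named falls were the exchange factors Fgd2 (-1.09 ± 0.13) and Arhgef3 (-0.90 ± 0.10), the sorting nexins Snx8 (-0.97 ± 0.12) and Snx24 (-0.90 ± 0.12), the lysosomal transporter Slc46a3 (-1.06 ± 0.11), the lipid-transfer and RhoGAP domain protein Stard8 (-1.02 ± 0.11), the phosphatase Ctdsp2 (-0.96 ± 0.11), the kinesin motor Kif3a (-0.95 ± 0.11), and Tnfaip8 (-0.92 ± 0.14), Tmem154 (-0.94 ± 0.11) and Dmac1 (-0.94 ± 0.12). Among 160 tested solute carrier (Slc) genes 23 rose and 5 fell, 17.5% called in either direction, beside 12.9% of all features. The clock group as a whole had 1 of 12 genes higher, Nfil3 (0.88 ± 0.12), and Dbp as the single one lower. At the edge of the 25 largest in each direction, the values were 1.61 (Treml4, inside) and 1.60 (Fpr2, outside) for rises, and -0.85 (Tpcn1, inside) and -0.84 (Tnfaip8l2, outside) for falls.

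The same stimulus was also given to macrophages treated with IFNg, on 4 arrays that are not part of the comparison above but share its fit's estimate of spread. IFNg with opsonised cells differed from IFNg alone in 1325 features (15.0%), 617 higher (6.97%) and 708 lower (8.0%), and in 727 and 810 without IFNg array 1 or 2. Of the 565 features that rose without IFNg, 287 also rose with it (50.8% of the 565 and 46.5% of the 617) and 8 fell, and of the 581 that fell, 271 also fell with it (46.6% of the 581 and 38.3% of the 708) and 5 rose. The median log2 difference of the 565 was 0.35 with IFNg and 0.53 without, and that of the 581 was -0.32 with IFNg and -0.47 without. Both sets were picked by their calls without IFNg, which enlarges the medians without it. The smaller medians with IFNg therefore cannot be read as a weaker response. Over all 8855 features the differences correlated at Pearson's r = 0.628 and Spearman's rho = 0.448, given as a description only, since genes are no independent replicates.

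The test of the difference between the effects (the effect with IFNg minus that without) was passed by 230 features (2.6%), 106 positive (1.2%) and 124 negative (1.4%). With arrays aligned on housekeeping genes the split was 80 and 143, 35.9% positive against 46.1%. Without 1 of the arrays of IFNg or of unstimulated cells the 230 became 102 to 137. Hmox1 differed by 4.61 with IFNg and by 3.40 without (difference 1.21), and Slc40a1 by 3.14 and 1.48 (difference 1.66). Hmox1 reached 23327 and 22924 for IFNg with opsonised cells and 26039 and 24684 for opsonised cells without IFNg, against 919 and 969 with IFNg alone and 2342 and 2451 in unstimulated cells. Slc40a1 reached 23590 and 23754 for IFNg with opsonised cells and, without IFNg, 26321 and 26467, against 2601 and 2757 with IFNg alone and 9215 and 9689 in unstimulated cells, so that for both genes the unstimulated levels lay above those with IFNg alone. Ccl5 had the largest positive difference of the 8855 features, 2.87 with IFNg and 0.13 without (difference 2.74). On the other side, Gsta3 differed by 0.46 with IFNg and 2.55 without (difference -2.09), Mmp13 by -0.63 and 1.38 (difference -2.01, and -0.88 for the mean of its probes), and Acss2 by 0.29 and 1.83 (difference -1.55). In the ATF4 group 1 gene rose and 7 fell with IFNg, against 9 and 0 without. The Fc receptors Fcgr1 and Fcgr2b fell in both settings, with differences of -0.81 and -0.70 with IFNg and -0.57 and -0.42 without, on the log2 scale.

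**Figure D5:**
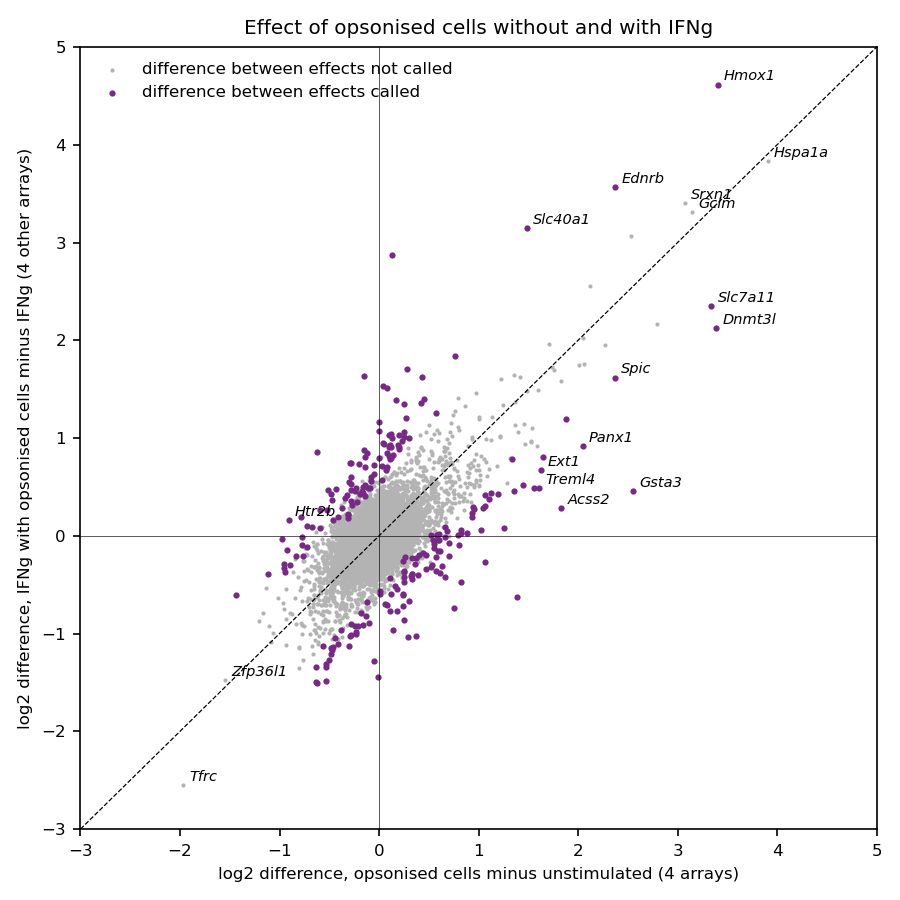
Each point is 1 of 8855 features, with the log2 difference of opsonised against unstimulated cells on the x axis and that of IFNg with opsonised cells against IFNg on the y axis; purple points (230) passed the test of the difference between the effects, and the dashed line marks equal effects. Hspa1a, Gclm, Srxn1 and Tfrc lie near the line, Hmox1, Slc40a1 and Ednrb above it, and Gsta3, Acss2, Panx1 and Dnmt3l below it.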

How the data were processed

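The authors deposited normalized intensity values made with GenomeStudio, per the submitters' processing notes, and for GenomeStudio's version and settings the labels have no entry. Sorted intensities of the 8 arrays differed by no more than 0.960% at equal rank, as after quantile normalization, and background had not been taken off (lowest value 119.8). A second deposited table was not used, because none of its 16 per-sample columns has a name that matches a label. Groups came from sample titles. Log2 intensities of all 8 arrays were fitted with limma 3.58.1 in R 4.3.3 (4 group means, eBayes with an intensity trend, 4 residual and 22.5 total degrees of freedom), with Benjamini-Hochberg adjustment over 8855 features and a threshold of 0.05. A call means an adjusted p under this threshold, and values after ± are SEs.

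The background floor lay 1.64 SD above the mode of the log2 values, with the SD taken from values under the mode (204.9), and each gene was read from its brightest probe. Where neither array of a group passed the floor, a fold is given as "at least". GEO's platform annotation gave 1 symbol for 23978 probes and none for 1719, and 23962 Entrez identifiers matched the RefSeq gene table. Named genes are the 25 largest called and non-overlapping changes each way, up to 6 called members a gene list, all tested Fc receptor and iron genes, and the largest differences between effects. The comparison and the gene lists were chosen with earlier results of these data known. The fit was tested on simulated data with known changes. It recovered 98% of 100 changes of 1 on the log2 scale and 56% of 100 changes of 0.5, with 8 false calls. A gene that was not called may therefore still have changed by about 0.5. Alternatives were other floors, normalizations, background correction, variance models, probe summaries, arrays in the fit, a replicate block and leaving out each array. Promoter sequences are from RefSeq (GRCm38.p6). The kappaB consensus replaced a narrower string of letters, and a heat shock element search was left out, after their shares had been seen. A sterol element (TCACNCCAC) and an E-box (CACGTG) were searched too. The sterol element was present in 1 of 14 sterol genes with a promoter, and the windows of Hsd17b7 and Cyp51 held none. The E-box was present in 12.2% of tested genes, 14.4% of those called higher and 13.3% of those called lower. Ifngr1 is outside the rule for named genes by rank and is named because it was the single interferon-responsive gene called lower.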

Additional observations from a re-analysis of the deposited data

Results flagged for a closer look

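For 40 genes named above, the effect of opsonised cells with IFNg differed from the effect without it by the test of the difference itself (limma, adjusted over all features). In each bracket the log2 difference with IFNg comes first, then that without, then the first minus the second. Genes are sorted by the signs of the fitted effects, whether or not each effect was itself called. Genes named above for a large difference without IFNg are by that choice more likely to show a smaller effect with it. The effect of Ccl5 without IFNg (0.13) was not called. With IFNg, those of Gbp2 (0.08), Cd274 (0.06), Nfil3 (0.03), Snx8 (-0.03), Fcgrt (-0.11) and Tnfaip8 (-0.14) lay near 0. Both effects were positive and the one with IFNg was larger for Hmox1 (4.61 and 3.40, difference 1.21), Ednrb (3.57 and 2.37, difference 1.20), Ccl3 (1.40 and 0.45, difference 0.95), Slc40a1 (3.14 and 1.48, difference 1.66) and Ccl5 (2.87 and 0.13, difference 2.74). Both were positive and the one with IFNg was smaller for the stress and metabolic genes Slc7a11 (2.35 and 3.34, difference -0.98), Gsta3 (0.46 and 2.55, difference -2.09), Acss2 (0.29 and 1.83, difference -1.55), Slc2a1 (0.49 and 1.55, difference -1.06), Sod2 (0.79 and 1.33, difference -0.55), Gadd45g (1.19 and 1.88, difference -0.69), Atf3 (0.43 and 1.19, difference -0.77), Cebpb (0.31 and 1.07, difference -0.76) and Dusp4 (0.43 and 1.13, difference -0.69). The same held for the immune genes Cxcl10 (0.37 and 1.11, difference -0.73), Gbp2 (0.08 and 1.26, difference -1.18), Cd274 (0.06 and 1.02, difference -0.96), Treml4 (0.48 and 1.61, difference -1.13) and Nfil3 (0.03 and 0.88, difference -0.85), and for Dnmt3l (2.13 and 3.38, difference -1.26), Spic (1.62 and 2.37, difference -0.75), Panx1 (0.92 and 2.04, difference -1.12), Tbcel (0.80 and 1.65, difference -0.84) and Ext1 (0.67 and 1.63, difference -0.96). The fitted effect was negative with IFNg and positive without it for Chac1 (-0.74 and 0.76, difference -1.50), Mthfd2 (-0.42 and 0.66, difference -1.08), Ifit2 (-0.27 and 1.06, difference -1.33), Ifit3 (-0.48 and 0.83, difference -1.30) and Mmp13 (-0.63 and 1.38, difference -2.01). Among genes that fell without IFNg, the fall was smaller with it for Slco2b1 (-0.60 and -1.44, difference 0.84), Acss1 (-0.39 and -1.12, difference 0.73), Snx8 (-0.03 and -0.97, difference 0.94), Kif3a (-0.33 and -0.95, difference 0.63), Tcf4 (-0.29 and -0.95, difference 0.66), Itgb5 (-0.37 and -0.94, difference 0.57), Tnfaip8 (-0.14 and -0.92, difference 0.78), Arhgef3 (-0.30 and -0.90, difference 0.60) and Fcgrt (-0.11 and -0.72, difference 0.61). The fitted effect was positive with IFNg for Htr2b (0.16 and -0.91, difference 1.07) and Mertk (0.46 and -0.51, difference 0.98). Spic was below the floor on the arrays of both unstimulated cells and IFNg alone, so both of its effects are lower bounds and the size of their difference is not fixed. Slc7a11, Treml4 and Dusp4 were below it with IFNg alone and Slco2b1 for IFNg with opsonised cells, so their effects with IFNg are understated too. With the mean of a gene's probes the difference between effects was not called for Dusp4 (-0.42), Gadd45g (-0.56) or Gbp2 (-0.49), and was -0.88 for Mmp13 and -0.59 for Spic. Each group has 2 arrays, so no group could be searched for an array that stands apart from its others, and the reason for these differences was not tested.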

How the results depend on the processing

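The count of 1146 changed features lay between 941 and 1200 under the 9 alternatives that kept all 4 arrays, and between 675 and 947 when 1 array was left out, where a group of 1 array is assumed to vary like the others. The count of features changed at least 2-fold (87) lay between 80 and 128, and between 86 and 101 with 1 array left out. The count with IFNg (1325) lay between 727 and 1027 with 1 array left out, and the count of differing effects (230) between 102 and 249. Alignment on housekeeping genes gave 1044 changed features, 59.8% of them higher, and 223 differing effects, 35.9% of them positive. Of 157 genes described, 137 kept their direction and call under all 13 settings, among them all 50 of the largest changes, and 0 reversed. Besides the losses given in the report, Hspb1 and Tyrobp lost their calls with the 4 arrays alone and without the intensity trend, Hspb1 with no filter and Tyrobp with the mean of probes, while Hmox2 gained one without opsonised array 2 (-0.42) and Blnk with the mean of probes (-0.37). The lower call of the autophagy group was lost with housekeeping alignment as well. The count of lower cytokine and NF-kappaB feedback genes became 1 with the stricter floor, with background correction or without the intensity trend. That of lower Toll-like receptor genes became 1 with the stricter floor or the mean of probes. Counts of 0 became 1 without 1 array for lower NRF2, NADPH supply, chemokine, NADPH oxidase, lysosome and lipid handling genes and for higher actin and Bcl2 family genes, and counts of 1 became 2 for lower actin, higher proton pump and lower clock genes. With the mean of probes, the differences of Ednrb, Gbp2, Mmp13, Plpp3 and Spic moved by over 1.5 times, to the values given in the report. With the replicate number as a block, 1094 features were called and no gene described changed its call. Arrays of the same number deviated from their group means with correlations of -0.04 to 0.04, so no shift shared by arrays of a number was seen. With 2 arrays a group this cannot tell whether the numbers pair the samples by mouse or culture. No scaling moved the median of all features by over 0.1. Background was not subtracted from the deposited values, so fold changes of dim genes are understated, and signals near the top of the scale, such as Hmox1, Fth1 and Fcer1g, may be compressed.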
